A study of Mus musculus with 6 samples.

Results

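Genes of the smooth-muscle contractile apparatus, of hepatic stellate cells and of other mesenchymal cells were examined in liver sinusoidal endothelial cells (LSECs) from mice lacking Txnip. The 43 genes, out of 23282 rows in each count file, were taken by symbol from a list chosen on the genotype differences of these same libraries. Their differences between TXNIP-/- and WT are therefore given as a description, with the adjusted p that each had as a row of the fit across the whole table. The study asked how the thioredoxin-interacting protein encoded by Txnip affects endothelial function in alcohol-associated liver disease. LSECs of TXNIP-/- mice, a total knockout on a C57BL/6J background, were compared with LSECs of C57BL/6J mice (WT), with 3 QuantSeq 3′ libraries per genotype. The liver was perfused with collagenase, non-parenchymal cells were separated on a density gradient, and LSECs were retained on anti-CD146 magnetic beads. The methods gave ordinary chow as the diet and a growth medium for endothelial cells for the selected LSECs, but did not specify whether the cells used for RNA had been cultured, nor the age and sex of those mice. The labels did not say that the replicates came from separate animals, so p-values measure only the spread between these samples, which may be technical.

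Quiescent stellate cells lie beside the sinusoidal endothelium, store retinoid esters and carry desmin and Lrat. In liver injury they can become contractile myofibroblasts, which build actin stress fibres from smooth-muscle actin and its partners and secrete matrix. Many contractile genes are transcribed through the CArG box, the DNA element bound by serum response factor, whereas YAP with TEAD factors drives genes such as Ctgf, Cyr61 and Ankrd1.

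Txnip itself had 269, 216 and 191 counts in TXNIP-/- replicates 1 to 3 and 1901, 2019 and 1994 counts in WT replicates 1 to 3, in libraries of 9147764 to 10193952 counts. All TXNIP-/- libraries were far below all WT libraries, as their labels say. At these depths 3 counts corresponded to 0.286 to 0.335 CPM (counts per 1000000, scaled between libraries), which was taken as the floor for a gene without counts, for counting error alone. A pair of WT libraries, replicates 1 and 2, was set off from the remaining 4. Their counts differed from each other by a chi-square per degree of freedom of 3.93, but from WT replicate 3 by 36.9 and 40.0. WT replicate 3 differed from the TXNIP-/- libraries by only 13.3 to 17.2, and the TXNIP-/- libraries differed among themselves by 8.41 to 9.62. For many of the genes below, results are therefore also given for TXNIP-/- against WT replicate 3 alone, obtained with a term for WT replicates 1 and 2, or without WT replicate 3. In the former the lone WT library is assumed to vary like the others.

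Endothelial markers were abundant in every library. The 15 LSEC markers summed to 4840, 5155 and 5285 CPM in TXNIP-/- replicates 1 to 3 and to 7251, 7442 and 5616 CPM in the WT replicates, and none of the 15 was without counts in all libraries. All 15 had lower fitted values in TXNIP-/-, and the scavenger receptors Stab1, Stab2 and Mrc1 fell, with log2 fold changes of -0.46, -0.36 and -0.76 (edgeR adjusted p = 0.00984, 0.0448 and 0.000718). Each of these 3 genes had fewer counts in every TXNIP-/- library than in any WT library. Against WT replicate 3 alone, Stab1 and Mrc1 were called (-0.57 for both) and Stab2 was not (-0.38, adjusted p = 0.0717). Lyve1, the hyaluronan receptor and the most abundant of them, averaged 1698 against 2927 CPM, and WT replicate 3 (14366 counts) lay inside the TXNIP-/- range of 13206 to 18485 counts. The pan-endothelial gene Cdh5 had 1069 against 1101 CPM. Mcam, which encodes the CD146 antigen used for selection and is also carried by pericytes and smooth muscle, had 413, 386 and 365 counts in TXNIP-/- and 584, 691 and 402 counts in WT.

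Markers of Kupffer cells, the resident liver macrophages, were lower in TXNIP-/-. Their 12 genes summed to 310, 301 and 333 CPM in TXNIP-/- and to 757, 725 and 744 CPM in WT, and none of the 12 was without counts in all libraries. All 11 tested genes had lower fitted values and 10 were called, beside 0.976% of all genes tested that were called as lower. Clec4f, the gene not called, had 35, 95 and 74 counts against 125, 155 and 197 (log2 fold change -1.14, edgeR adjusted p = 0.0917). Marco, a scavenger receptor and the most abundant, averaged 83.2 against 175 CPM, and Cd163, the haemoglobin scavenger receptor, had the smallest p, with a log2 fold change of -2.07 (edgeR adjusted p = 5.48e-07) that was -2.02 against WT replicate 3 alone. Marco, C1qa, Vsig4, Cd5l and C1qb followed in order of p, with log2 fold changes of -1.07, -1.48, -1.48, -0.99 and -1.48. In bulk RNA, fewer cells of a type and less RNA per cell cannot be told apart, and the same holds for more cells and more RNA. Timd4 was the gene not tested, with 0, 11 and 5 counts against 12, 2 and 3. Smaller shifts were seen elsewhere. The 10 hepatocyte markers summed to 60.4 ± 3.94 (SD, n = 3) against 50.7 ± 0.84 CPM, led by Alb at 20.3 against 22.4 CPM, and the 8 mesothelial markers to 19.2 ± 3.39 against 12.4 ± 3.03 CPM, led by Krt8, with Upk3b at 0. In both lists all 3 TXNIP-/- sums lay above all 3 WT sums, but not every member had that direction. Of the 7 hepatocyte markers tested, 6 had positive fitted values and Alb had -0.14. Cyp2e1, which was not tested, had 5, 6 and 5 counts against 12, 16 and 7. Gpm6a, 1 of the 4 mesothelial markers tested, was also lower (9, 20 and 3 counts against 36, 32 and 20, log2 fold change -1.35, adjusted p = 0.489). Cholangiocyte (5.19 ± 2.14 against 3.55 ± 2.28 CPM, led by Sox9), portal fibroblast (8.12 ± 0.51 against 11.4 ± 5.53 CPM, led by Cd34, Dpt at 0) and leukocyte markers (3.83 ± 1.72 against 5.63 ± 1.15 CPM, led by Ptprc, Cd3e and Nkg7 at 0) were sparse, and their sums overlapped between genotypes. Most of the portal fibroblast sum was Cd34 (6.19 against 9.79 CPM), which the study used as a marker of capillary endothelium. By qRT-PCR the study reported Cd34 as raised in LSECs lacking Txnip. In these libraries it averaged lower, overlapped between genotypes and was not called (log2 fold change -0.66, edgeR adjusted p = 0.481). In these 5 lists no tested gene was called by edgeR, DESeq2 or limma-trend, and Apoa1 and Krt8 were higher at an unadjusted p under 0.05.

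**Figure D1:**
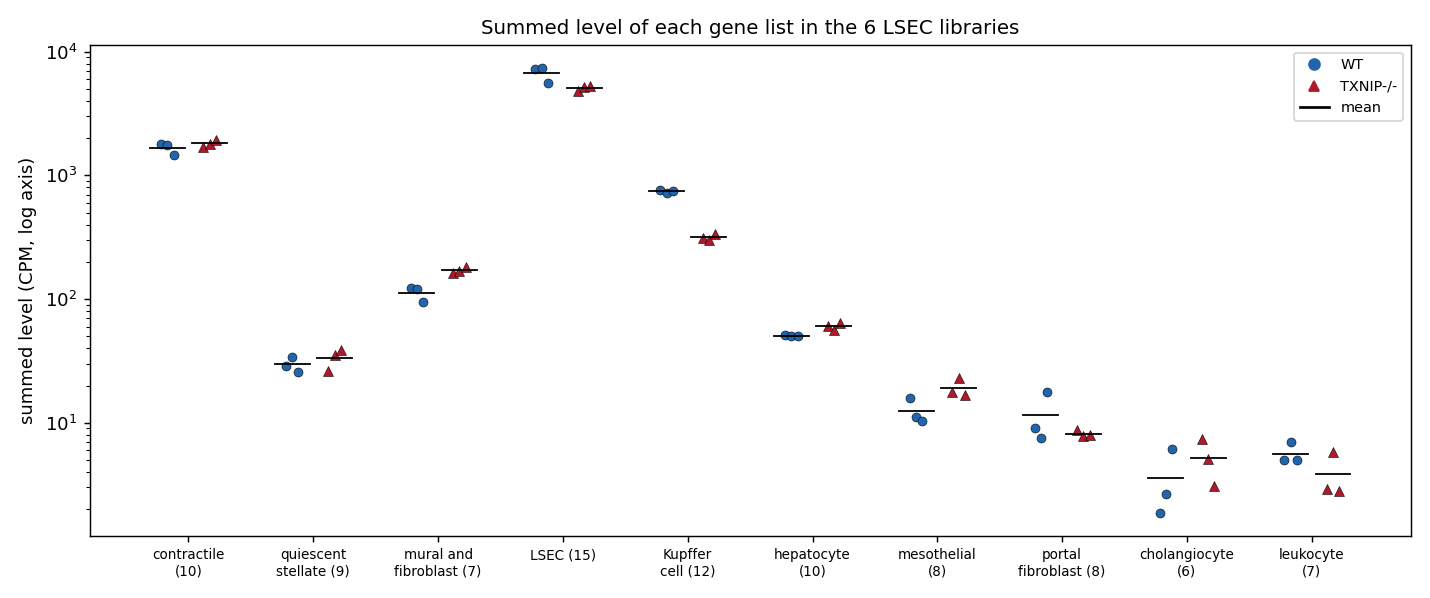
Summed level of each gene list in CPM (log axis) in the 3 WT libraries (circles) and the 3 TXNIP-/- libraries (triangles), with the mean of each genotype as a line and the number of genes in brackets. Kupffer cell sums were 301 to 333 CPM in TXNIP-/- and 725 to 757 CPM in WT, whereas those of the 10 contractile genes, which are mostly Cald1 and Tpm1, overlapped between genotypes.

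The 43 genes covered a wide range of levels. QuantSeq gives about 1 read per transcript end whatever its length, so CPM was compared between genes. In WT, 8 genes averaged 1000 CPM or more, 7 lay between 100 and 1000, 7 between 10 and 100, and 21 under 10. The abundant end held Ctgf, at rank 4 of all rows in WT (5133 CPM), Tpm4 at rank 17, Actn4 at rank 30, Actn1 at rank 34 and Cald1 at rank 60. Genes that define smooth muscle, stellate cells or pericytes sat far lower, with Tagln at rank 5671, Dcn at 6960, Acta2 at 9291, Des at 10218 and Pdgfrb at 11367. Together the 43 genes took 1.73% of the counts in TXNIP-/- and 1.94% in WT. The libraries did not vary alike among these genes. Among the 25 with a mean of at least 50 counts, WT replicate 3 was below both other WT libraries in 15 and above both in 8, with a median log2 ratio of -0.14 to their mean, whereas over the 9331 rows of that depth it was below both in 3664 (39.3%) and above both in 3823, with a median of 0.0045. Vim, Nes, Ankrd1, Mylk, Cnn2 and Ecm1 were among those lowest in WT replicate 3, and Acta2, Postn, Tagln2 and Myl6 were among those highest there.

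**Figure D2:**
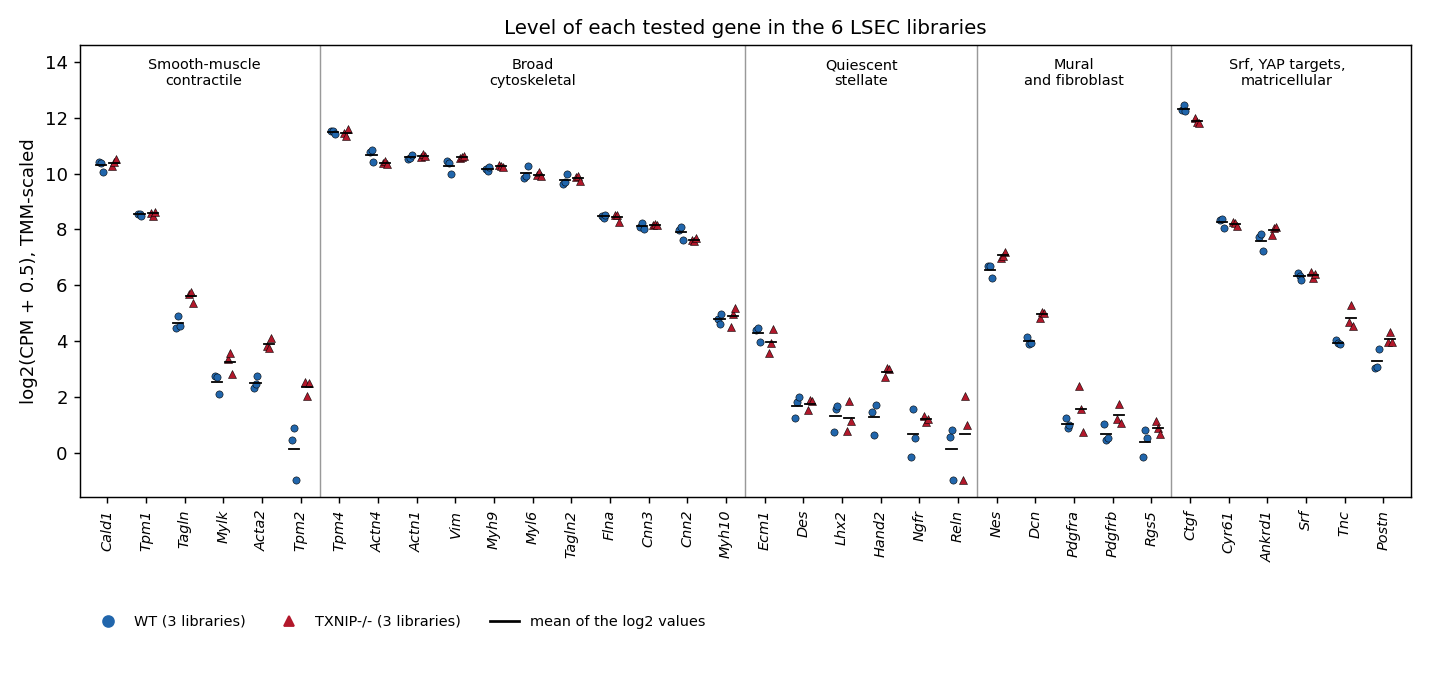
Level of the 34 tested genes as log2(CPM + 0.5) in the 3 WT libraries (circles) and the 3 TXNIP-/- libraries (triangles), ordered by role and by WT level, with the mean of each genotype as a line. The broadly expressed cytoskeletal genes lie at 27.1 CPM or more in WT, and 3 triangles lie above 3 circles for Tagln, Acta2, Mylk and Tpm2 among the contractile and for Vim and Myh9 among the cytoskeletal genes.

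Of the 43 genes, 34 had enough counts to be tested. Among these 34, 5 rose (Acta2, Tagln, Nes, Dcn and Tnc) and 1 fell (Ctgf) at an adjusted p under 0.05. Over the 11583 genes tested, 1.55% were called, 0.570% as higher and 0.976% as lower in TXNIP-/-. At an unadjusted p under 0.05 there were 11 higher and 3 lower, beside 5.48% and 6.05% of all genes. All TXNIP-/- libraries were above all WT libraries for 12 of the 34 and below for 1, beside 8.43% and 8.94% of all genes. The median log2 fold change was 0.12, against -2.75e-05 over all genes tested. Since the list was chosen on this contrast, nothing is read from these counts. Tpm2, Ngfr, Pdgfrb and Rgs5 reached the filter in all 3 TXNIP-/- libraries but in only 1 WT library, so they could enter only through the genotype where they were high. The 9 untested genes were Myl9, Cnn1, Actg2 and Myh11 of the contractile group, Lrat, Colec11 and Gfap of the stellate group, and Cspg4 and Lum of the mural and fibroblast group.

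**Figure D3:**
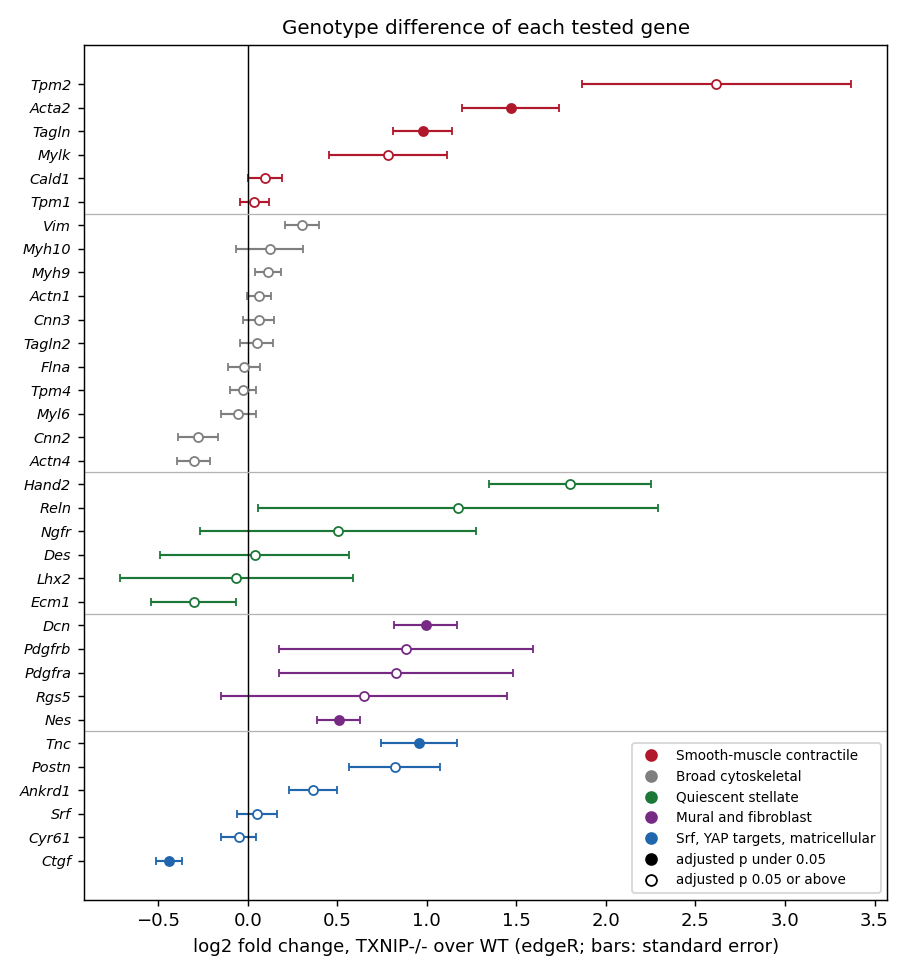
Log2 fold change, TXNIP-/- over WT, of the 34 tested genes by role (points) with its standard error (bars), where filled points have an edgeR adjusted p under 0.05. Fitted values run from -0.44 for Ctgf to 2.62 for Tpm2, and the bars are widest for genes with few counts such as Reln.

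Of the 10 contractile genes 6 were tested, and Acta2 and Tagln rose in TXNIP-/-. Acta2, which encodes smooth-muscle alpha-actin, had 123, 128 and 155 counts in TXNIP-/- replicates 1 to 3 and 46, 52 and 59 counts in WT replicates 1 to 3. Each TXNIP-/- library held more than any WT library, and both sets were tight. The log2 fold change was 1.47 ± 0.27 (SE; edgeR adjusted p = 0.00677). Tagln, the actin-bundling transgelin of smooth muscle, had 456, 521 and 381 counts against 220, 306 and 217. Again there was no overlap, and TXNIP-/- replicate 3 and WT replicate 2 were the nearest libraries. Its log2 fold change was 0.98 ± 0.16 (adjusted p = 0.00313). Tpm2, the beta-tropomyosin that stabilises contractile filaments, had 47, 35 and 48 counts against 9, 14 and 0. The genotypes were fully separate at very low counts, and the fitted value of 2.62 ± 0.75 did not pass in edgeR or limma-trend (adjusted p = 0.111 and 0.0640) but did in DESeq2 (0.0322). It passed in edgeR with no filter (adjusted p = 0.00617). Its pass against WT replicate 3 alone (adjusted p = 0.0166) rests on a library with 0 counts, so nothing is read from it and no size is given. Mylk, the kinase that phosphorylates myosin light chain, had 88, 111 and 61 counts against 63, 64 and 36. In raw counts TXNIP-/- replicate 3 fell between WT replicates, and after scaling by library it lay just above them. Its fitted value of 0.78 ± 0.33 did not pass (adjusted p = 0.358), nor did the 1.27 against WT replicate 3 alone (0.232).

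The abundant contractile genes had smaller fitted values and no call. Cald1, whose product caldesmon binds actin and calmodulin, had 10958, 13440 and 13700 counts in TXNIP-/- and 14066, 14134 and 10202 in WT. The genotypes overlapped, with WT replicate 3 the lowest library. Its log2 fold change was 0.10 ± 0.09 (adjusted p = 0.777), 0.33 against WT replicate 3 alone (adjusted p = 0.0605) and -0.0060 without that library. That of Tpm1, the alpha-tropomyosin, was 0.04 ± 0.08 (adjusted p = 0.920). The most specific smooth-muscle genes were at or near the floor. Cnn1, encoding basic calponin, had 0 counts in all 6 libraries, and Actg2, the enteric smooth-muscle actin, had 2 counts in TXNIP-/- replicate 3 alone. Myh11, the smooth-muscle myosin heavy chain, had 6, 0 and 17 counts against 0, 5 and 0, and the regulatory light chain Myl9 had 6, 11 and 19 against 7, 9 and 6. Neither gene had counts that separated the genotypes. Over the 6 tested contractile genes all fitted values were positive, with a median of 0.88, from which nothing is read because Tpm2 had passed the filter through TXNIP-/-, and with library totals in place of scaling factors that of Tpm1 was -0.05.

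Summed over all 10 contractile genes, the level was 1693, 1811 and 1934 CPM in TXNIP-/- and 1781, 1766 and 1473 CPM in WT. These sums overlapped (log2 ratio of means 0.12), and Cald1 and Tpm1 made up most of them. Without this pair, a split made after the values were seen and so only a description, the other 8 genes summed to 81.1, 82.2 and 73.0 CPM against 33.6, 42.9 and 33.6 CPM (log2 ratio 1.10), without overlap and mostly from Tagln and Acta2. Against WT replicate 3 alone the log2 fold change of Acta2 was 1.21 and was not called (adjusted p = 0.139), whereas Tagln kept its call at 1.07 (adjusted p = 0.0222). Without WT replicate 3 the values were 1.61 and 0.93 (adjusted p = 0.00318 and 0.00424). The call of Acta2 was also lost without WT replicate 1 (1.37, adjusted p = 0.0547). Over the same libraries Kupffer cell and LSEC marker sums were lower (315 ± 16.8 against 742 ± 16.2 CPM, and 5094 ± 229 against 6769 ± 1004 CPM). Hepatocyte and mesothelial marker sums were higher (60.4 against 50.7 CPM, and 19.2 against 12.4 CPM), though Alb, Cyp2e1 and Gpm6a averaged lower. The part of these sums in the result was not tested.

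Reads of these genes may be shared with others, because the authors counted unique and multiple alignments and the use of strand was not stated. The actin copies Acta1 (15, 5 and 3 counts against 3, 3 and 0) and Actc1 (3 counts in WT replicate 3 alone) were near the floor. Pcsk7, on the opposite strand, overlaps the 3′ end of Tagln (chr9:45929619-45936058) and had 240, 188 and 284 counts against 253, 244 and 199. Those counts overlapped between genotypes, unlike those of Tagln, but the assignment of reads between the pair remains uncertain. Capn12 likewise overlaps Actn4 and had 7689 to 7856 counts in TXNIP-/- replicates 1 and 2, 6575 in replicate 3, and 8406 to 9234 in WT. Opposite-strand genes at the ends of Hand2 (Hand2os1) and Des (Gm15179), and Gm48529 at Tagln, were not analysed here.

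The 9 quiescent stellate genes of the list were sparse in both genotypes, and none was called by edgeR. Des, which encodes the intermediate filament desmin, had 21, 31 and 29 counts in TXNIP-/- and 19, 32 and 33 counts in WT. The libraries interleaved, with a log2 fold change of 0.04 ± 0.53 (adjusted p = 0.988) that became -0.28 against WT replicate 3 alone. Lrat, the enzyme that esterifies retinol for storage, had 19, 8 and 12 counts against 9, 0 and 0. It was seen in each TXNIP-/- library and in 1 WT library, overlapped, and was too low to be tested. Reln, the secreted glycoprotein reelin, had 0, 35 and 14 counts against 10, 13 and 0, so each genotype held a library without counts (adjusted p = 0.774). Ecm1, a secreted matrix protein and the most abundant of these 9 genes, had 101, 143 and 195 counts against 212, 228 and 144. In raw counts WT replicates 1 and 2 were the highest libraries, after scaling TXNIP-/- replicate 3 lay between them, and WT replicate 3 was within the TXNIP-/- range either way, with a log2 fold change of -0.30 ± 0.24 (adjusted p = 0.698) that became 0.03 against WT replicate 3 alone.

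Hand2, a transcription factor of stellate and other mesenchymal cells, was the exception in this group. It had 54, 75 and 69 counts in TXNIP-/- and 23, 11 and 26 in WT. All TXNIP-/- libraries were above all WT libraries, at 7.02 ± 0.87 against 2.01 ± 0.87 CPM (SD, n = 3). The log2 fold change of 1.80 ± 0.45 missed the threshold in edgeR (adjusted p = 0.0577) and passed it in DESeq2 (0.0210), limma-trend (0.0454) and edgeR with no filter (0.00918). Against WT replicate 3 alone it was 1.35 (adjusted p = 0.363), and without that library 2.09 (adjusted p = 0.0250). The LIM-homeodomain factor Lhx2 and the neurotrophin receptor Ngfr had fitted values of -0.06 and 0.51, with adjusted p of 0.983 and 0.881. Colec11, a soluble lectin, had 5 to 17 counts per library, and Gfap, a glial filament gene also used for stellate cells, had at most 3.

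Together the 9 stellate genes summed to 26.1, 35.2 and 38.5 CPM in TXNIP-/- and to 29.0, 33.9 and 25.8 CPM in WT, a log2 ratio of means of 0.17. The sums of these 9 genes overlapped between genotypes, but Ecm1, which averaged lower in TXNIP-/-, made up a large part of them. Ecm1 averaged 15.6 CPM of a mean sum of 33.3 CPM in TXNIP-/-, and 19.2 CPM of 29.6 CPM in WT. Whether the sums overlapped without Ecm1 was not tested, so nothing is read from this overlap for the other genes. Of the 6 tested stellate genes 4 had positive fitted values and none was called by edgeR (Des was -0.04 with library totals alone), with 1 at an unadjusted p under 0.05 and 1 called by each of DESeq2 and limma-trend, and the median was 0.27. Nothing is read from that count or median, because Ngfr had passed the filter through TXNIP-/-. The median was -0.06 without WT replicate 1 and 1.43 without WT replicate 2. Whether the stellate and contractile genes differed from each other in their response was not tested, because the list was chosen on this contrast.

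Among mural and fibroblast genes, Dcn and Nes rose. Dcn, the collagen-binding proteoglycan decorin of fibroblasts and stellate cells, had 247, 319 and 297 counts in TXNIP-/- and 176, 149 and 140 in WT. The lowest TXNIP-/- library was well above the highest WT library. The log2 fold change was 0.99 ± 0.18 (adjusted p = 0.00497), it was called in 6 of 6 leave-one-out fits, and it was 1.05 against WT replicate 3 alone (adjusted p = 0.0487). Nes, the intermediate filament nestin found in pericytes, stellate cells and some endothelium, had 1120, 1280 and 1362 counts against 1054, 1086 and 718. TXNIP-/- replicate 1 was only slightly above WT replicates 1 and 2 in counts, and WT replicate 3 was clearly the lowest. Its log2 fold change of 0.51 ± 0.12 (adjusted p = 0.0443) was called in 0 of 6 leave-one-out fits, was 0.82 against WT replicate 3 alone (adjusted p = 0.00209) and 0.38 without that library (adjusted p = 0.0503). With the replicate number as a block its adjusted p was 0.103, and with library totals alone 0.183.

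Pericyte genes were sparse. Pdgfrb, the receptor through which pericytes and stellate cells respond to PDGF-B, had 16, 28 and 15 counts against 16, 9 and 9, and Rgs5, a pericyte regulator of G-protein signalling, had 15, 13 and 10 against 4, 13 and 9. In raw counts the genotypes touched or overlapped in both. After scaling, all TXNIP-/- libraries of Pdgfrb lay just above all WT libraries (1.60 to 2.85 against 0.857 to 1.56 CPM), and those of Rgs5 still overlapped. The log2 fold changes were 0.88 ± 0.71 and 0.65 ± 0.80. Pdgfra, the fibroblast PDGF receptor, had 0.83 ± 0.65 (adjusted p = 0.701). Cspg4, the NG2 proteoglycan, had 7 counts in TXNIP-/- replicate 1 alone, and Lum, the proteoglycan lumican, had 3 counts in TXNIP-/- replicate 2 alone. All 5 tested genes had positive fitted values, with a median of 0.83, but Pdgfrb and Rgs5 had passed the filter through TXNIP-/-, so nothing is read from that count. The 7 genes summed to 162, 170 and 181 CPM against 124, 121 and 94.1 CPM, mostly from Nes. Kupffer cell (315 against 742 CPM), LSEC (5094 against 6769 CPM), hepatocyte (60.4 against 50.7 CPM) and mesothelial marker sums (19.2 against 12.4 CPM) also differed between these libraries, and their part in the result was not tested.

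The broadly expressed cytoskeletal genes had fitted values from -0.30 to 0.30. None of the 11 was called by edgeR, DESeq2 or limma-trend, though edgeR with no filter called Actn4 and Vim (adjusted p = 0.00665 and 0.0117). Fitted values were positive in 6 and negative in 5 (3 and 8 with library totals alone), and the median was 0.049. At an unadjusted p under 0.05 there were 1 higher and 2 lower, beside 5.48% and 6.05% of all genes tested. With library totals and no scaling factors, which moved the median of all genes to -0.082, the cytoskeletal median was -0.027. Tpm4, a tropomyosin of non-muscle stress fibres and the most abundant, had 25465, 25649 and 28759 counts against 30618, 30986 and 26051. In raw counts WT replicates 1 and 2 were highest and WT replicate 3 lay among the TXNIP-/- libraries. After scaling TXNIP-/- replicate 3 was the highest and the genotypes overlapped, at 2844 ± 230 against 2896 ± 122 CPM. Vim, the mesenchymal and endothelial intermediate filament vimentin, had 13444, 15217 and 14670 counts against 14261, 14011 and 9661. Raw counts overlapped, and after scaling all TXNIP-/- libraries were above all WT libraries, by a small margin over WT replicates 1 and 2 and a wider one over WT replicate 3. The log2 fold change of Vim was 0.30 ± 0.09 (adjusted p = 0.156), 0.59 against WT replicate 3 alone (adjusted p = 8.01e-05) and 0.18 without that library (adjusted p = 0.0907).

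Actn4, an actin-crosslinking alpha-actinin, had 11828, 13691 and 12183 counts in TXNIP-/- and 17806, 19383 and 12949 in WT. Cnn2, a non-muscle calponin, had 1736, 1872 and 1940 counts against 2610, 2819 and 1843. In both genes WT replicates 1 and 2 were high and WT replicate 3 lay with the TXNIP-/- libraries. The log2 fold changes were -0.30 ± 0.09 and -0.28 ± 0.11 (adjusted p = 0.146 and 0.311). Against WT replicate 3 alone they were -0.03 and 0.02, and without that library -0.42 and -0.41 (adjusted p = 0.000118 and 0.00772). The other 8 genes, the non-muscle myosins Myh9 and Myh10, the light chain Myl6, filamin Flna, Actn1, Cnn3, Tagln2 and Tpm4, had fitted values between -0.05 and 0.12.

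Of Srf and the YAP targets in the list, only Ctgf was called in the main fit. Ctgf, a secreted matricellular protein, had 36173, 36140 and 33934 counts in TXNIP-/- and 51257, 58926 and 45356 in WT. All TXNIP-/- libraries were below all WT libraries, and WT replicate 3 was the nearest. The log2 fold change was -0.44 ± 0.07 (adjusted p = 0.00210), it was called in 6 of 6 leave-one-out fits, and it was -0.34 against WT replicate 3 alone (adjusted p = 0.0104). Ankrd1, a nuclear and sarcomeric ankyrin-repeat protein, had 1981, 2616 and 2548 counts against 2193, 2398 and 1406. The genotypes overlapped, and its log2 fold change of 0.36 ± 0.13 (adjusted p = 0.264) was 0.77 against WT replicate 3 alone (adjusted p = 0.00176) and was also called with no filter (adjusted p = 0.0183). Cyr61, the close relative of Ctgf, and Srf itself had -0.05 ± 0.10 and 0.05 ± 0.11 (adjusted p = 0.907 and 0.919), and Srf was -0.03 with library totals alone.

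Tnc and Postn are matricellular genes of activated fibroblasts. Tnc, encoding tenascin-C, had 224, 382 and 213 counts in TXNIP-/- and 162, 155 and 134 in WT. There was no overlap, and TXNIP-/- replicate 2 was far above the other libraries. The log2 fold change of 0.96 ± 0.21 (adjusted p = 0.0270) was called in 2 of 6 leave-one-out fits and was 0.68 without TXNIP-/- replicate 2 (adjusted p = 0.174). At log2 fold changes of 0.87 to 1.05, its call was also lost without TXNIP-/- replicate 1 (adjusted p = 0.0585), without WT replicates 1 or 2 (0.10 and 0.108), against WT replicate 3 alone (0.110), with the replicate number as a block (0.0507) and with library totals alone (0.0575). Postn, encoding periostin, had 134, 193 and 142 counts against 79, 83 and 120. WT replicate 3 came close to the TXNIP-/- libraries, and the log2 fold change of 0.82 ± 0.25 did not pass (adjusted p = 0.154), though it did without WT replicate 3 (1.09, adjusted p = 0.0246), and it was 0.39 against that library alone (adjusted p = 0.651). The median of these 6 genes was 0.21, and their sum (4461 ± 206 against 5740 ± 493 CPM) was mostly Ctgf. In the same libraries the Kupffer cell and LSEC sums were lower, at 315 against 742 CPM and 5094 against 6769 CPM. The hepatocyte and mesothelial sums were higher, at 60.4 against 50.7 CPM and 19.2 against 12.4 CPM, though Alb, Cyp2e1 and Gpm6a averaged lower. The part of these sums in the result was not tested.

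Smooth-muscle and fibrillar matrix genes outside the list of 43 were also compared. Of 17 further smooth-muscle genes 10 were tested and none was called by edgeR, DESeq2 or limma-trend, with 2 higher at an unadjusted p under 0.05, and 5 had all TXNIP-/- libraries above all WT libraries, beside 5.48% and 8.43% of all genes tested. Their median was 0.30, Csrp1, a LIM protein of the actin cytoskeleton, was the most abundant (163 against 144 CPM), and Synpo2 and Pdlim3 were at 0. Myocd, the coactivator that switches on the smooth-muscle programme, had 1 count in WT replicate 1 alone. Of 16 fibrillar matrix genes 12 were tested and none was called by the 3 tools, with 3 higher at an unadjusted p under 0.05 (beside 5.48% of all genes tested) and a median of 0.52. Lox, 1 of these 3, had passed the filter through TXNIP-/-, so nothing is read from the count or the median. Sparc, a collagen-binding glycoprotein, dominated them at 4512 against 4838 CPM, while Col1a1, the main fibrillar collagen of myofibroblasts, had 22, 22 and 10 counts against 16, 5 and 24.

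Genes of actin dynamics and of YAP and TEAD signalling were also compared, where 5.48% of all genes tested were higher and 6.05% lower at an unadjusted p under 0.05. All 26 actin dynamics genes were tested and none was called by edgeR or limma-trend (1 higher by DESeq2), with 3 higher and 1 lower at an unadjusted p under 0.05, a median of 0.029 and Actb, cytoplasmic beta-actin, as the most abundant (9637 against 8951 CPM). Among 18 tested YAP and TEAD genes, 1 higher and 0 lower were called by edgeR and limma-trend each (1 and 1 by DESeq2), with 2 higher and 1 lower at an unadjusted p under 0.05 and a median of 0.21 that includes Fjx1, which had passed the filter through TXNIP-/-. Axl, a receptor tyrosine kinase, was the gene that rose, with 431, 486 and 356 counts against 239, 243 and 178. All of its TXNIP-/- libraries were above all WT libraries (log2 fold change 1.06 ± 0.16, adjusted p = 0.00137), and it was 1.26 against WT replicate 3 alone (adjusted p = 0.00490). Crim1, a transmembrane protein that binds growth factors, was the most abundant of them, with -0.25 ± 0.07 (adjusted p = 0.103).

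Promoter windows from RefSeq (GRCm38.p6), reaching from 250 bases before to 50 bases after each annotated start, were read for letters that the gene list did not use. They matched 36 of the 43 genes in 41 windows, and Tagln, Actg2, Myh11, Pdgfrb, Dcn, Lum and Ctgf were not matched. The CArG box, searched without mismatch, was in 535 of 32851 windows (1.63%). Among the genes it was found in 4, namely Srf, Cnn2, Myl9 and Myl6. GGAATG, a core of TEAD-bound elements, was searched on both strands and was in 4817 windows (14.7%), among them those of 11 of the genes, Acta2, Actn4, Ankrd1, Cald1, Cyr61, Flna, Lrat, Myh10, Mylk, Tagln2 and Tpm1. No gene had both in its windows. A match describes letters and not binding, and a window without one says only that those letters are not in it. Near matches to the CArG box were not counted, such as ccctatatgg and ccttgtttgg in the window of Acta2. None of the genes with an exact CArG box in the window was called, and of those with GGAATG only Acta2 was, beside 1.55% of all genes tested. Myl9 and Lrat were not tested, and the called genes Tagln, Dcn and Ctgf had no matched window, so nothing is read from these counts.

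The window of Acta2 (chr19:34255324-34255623, minus strand) is shown because this gene had the largest log2 fold change among those called, with GGAATG in capitals, beginning 146 bases before the start. Those of Srf (chr17:46556113-46556412, minus strand), Cnn2 (chr10:79988350-79988649, plus strand) and Myl9 (chr2:156775214-156775513, plus strand) are shown for their CArG boxes, in capitals, which begin 82 and 62 bases before the start in Srf, 56 in Cnn2 and 161 in Myl9. All are written 5′ to 3′ on the strand of the gene.
Acta2 promoter: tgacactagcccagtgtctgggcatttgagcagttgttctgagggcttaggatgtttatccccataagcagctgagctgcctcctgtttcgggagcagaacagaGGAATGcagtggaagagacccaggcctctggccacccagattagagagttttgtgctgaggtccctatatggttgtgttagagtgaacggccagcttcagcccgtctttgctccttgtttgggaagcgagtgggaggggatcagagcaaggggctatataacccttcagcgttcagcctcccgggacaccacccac
Srf promoter: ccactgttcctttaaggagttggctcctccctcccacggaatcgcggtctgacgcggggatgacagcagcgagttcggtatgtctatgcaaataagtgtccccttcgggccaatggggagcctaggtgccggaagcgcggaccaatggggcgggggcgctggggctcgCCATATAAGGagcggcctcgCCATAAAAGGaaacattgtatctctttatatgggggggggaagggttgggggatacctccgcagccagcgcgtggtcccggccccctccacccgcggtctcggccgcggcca
Cnn2 promoter: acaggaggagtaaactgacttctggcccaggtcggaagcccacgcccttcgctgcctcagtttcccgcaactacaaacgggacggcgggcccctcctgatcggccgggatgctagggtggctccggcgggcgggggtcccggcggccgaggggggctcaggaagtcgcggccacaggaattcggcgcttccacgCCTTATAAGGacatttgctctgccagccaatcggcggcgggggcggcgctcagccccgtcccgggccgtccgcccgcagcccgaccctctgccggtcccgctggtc
Myl9 promoter: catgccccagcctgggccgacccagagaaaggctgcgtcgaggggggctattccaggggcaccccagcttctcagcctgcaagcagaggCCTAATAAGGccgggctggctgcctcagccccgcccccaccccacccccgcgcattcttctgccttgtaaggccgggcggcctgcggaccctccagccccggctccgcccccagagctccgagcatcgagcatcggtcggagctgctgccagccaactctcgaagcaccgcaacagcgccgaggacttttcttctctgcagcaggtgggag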

How the data were processed

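The authors prepared QuantSeq 3′ libraries from LSEC RNA and deposited raw counts per gene for each of 6 libraries (3 per genotype). Their methods and processing notes name Bowtie2, bedtools coverage over unique and multiple alignments, and mm10; versions, the annotation and the use of strand were not stated. The counts were fitted across all genes with edgeR 4.0.16 in R 4.3.3 (filterByExpr with a minimum count of 10, TMM factors, quasi-likelihood test on genotype), and p-values were adjusted by Benjamini-Hochberg over the 11583 genes that passed; called means an adjusted p under 0.05. Levels are TMM-scaled CPM. Rows repeating a symbol numbered 44. The fit was tested on simulated data. Alternatives were DESeq2 1.42.0, limma-trend 3.58.1 (prior count 2), other scaling factors, other filters (none, or a mean of at least 50 counts), leaving out Rn45s or each library, a replicate block, and a term for WT replicates 1 and 2. The 43 genes and the gene lists were chosen with earlier results of these data known. Counts per library are given for genes with an unadjusted p under 0.05, for defining genes and for the most abundant of each group; other lists are named by adjusted p and by abundance, and additional genes (neighbours, actin copies, Cdh5, Mcam and single genes at or near 0) were picked after their values were seen. Some results of the gene lists are not reported here. Gene positions are from GENCODE for GRCm38, the build also called mm10.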

Additional observations from a re-analysis of the deposited data

How the results depend on the processing

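The calls of Tagln, Dcn and Ctgf were kept in every alternative run. Of the 43 genes 6 were called, against 8 by DESeq2 (Hand2 and Tpm2 gained), 7 by limma-trend (Hand2 gained), 11 with no filter (Actn4, Ankrd1, Hand2, Tpm2 and Vim gained), 14 at an unadjusted p under 0.05, and 3 (without WT replicate 1) to 9 (without WT replicate 3) with a library left out. All genes called numbered 179, against 346 with no filter, 1336 at an unadjusted p under 0.05, and 89 (without WT replicate 1) to 367 (without WT replicate 3) with a library left out. With a replicate block there were 108, and 4 of the 6 genes kept their call (Nes and Tnc lost it, as with library totals alone). Deviations of same-numbered libraries correlated at -0.030, 0.017 and -0.047. The labels give them only a shared number, and whether they were prepared together was not tested.

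Against WT replicate 3 alone, the median log2 fold change was 1.14 for contractile and -0.0080 for cytoskeletal genes. The contractile median includes Tpm2, which had 0 counts in WT replicate 3. Like Ngfr, Pdgfrb and Rgs5 of the stellate and mural groups, Tpm2 had passed the filter through TXNIP-/-. Nothing is therefore read from the contractile, stellate, or mural and fibroblast medians given here. Among the genes followed singly through the alternatives, the sign turned against WT replicate 3 alone for Cnn2 (0.018), Des (-0.28), Tpm4 (0.046) and Ecm1 (0.032). Signs of the remaining genes in this comparison are not given, so others may also have turned. With library totals and no factors the medians were -0.027 for cytoskeletal and 0.12 for Srf, YAP and matricellular genes, and Des had -0.036. The mural and fibroblast median was 0.63 in limma-trend, and the stellate median was -0.30 with a mean of at least 50 counts, where Ecm1 alone was left. With a library left out, medians ran from -0.0070 to 0.088 (cytoskeletal), -0.056 to 1.43 (stellate), 0.55 to 0.97 (mural and fibroblast) and 0.092 to 0.27 (Srf, YAP and matricellular), and single genes from -0.19 to 0.23 (Des), -0.0060 to 0.16 (Cald1) and -0.090 to 0.032 (Tpm4). For the filter on counts and for left-out libraries the genes tested differ by construction; otherwise the cause was not tested. Lrat, Myh11 and Myl9 were among the genes under the filter on low counts.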
